A study of Mus musculus with 4 samples.

Results

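Microglia and the complement protein C1q were followed through 10 genes in the embryonic mouse retina. C1qa, C1qb and C1qc encode the chains of C1q, and Csf1r, Cx3cr1, Aif1, Tyrobp, Trem2, P2ry12 and Spi1 are other genes of microglia. The genes were taken by name, with earlier results of these data known. All 10 were found, each on a single row, among the 25239 genes listed. The 3 C1q chains were read apart from the 7 other genes. The 4 libraries, 2 of the control group and 2 of the group Isl1cKO, hold polyadenylated RNA of retina dissected at E13.5, a stage (in embryonic days) at which ganglion cells are being born. The series calls the latter retina Isl1-null. Isl1 encodes a LIM-homeodomain transcription factor of developing retinal neurons. The labels give neither the allele nor the Cre line behind the cKO, nor the genotype or strain of the controls, and they do not say whether retinas were pooled. They also do not say that the libraries came from separate animals, so the p-values measure only the spread between these libraries.

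Microglia are the resident macrophages of the retina and brain. They come from yolk sac precursors, enter the retina during embryonic life, and clear cells that die as neurons are produced. C1q is the recognition part of the first complement component. It binds targets such as immune complexes, dying cells and synapses, and activates the attached proteases C1r and C1s, which start the classical complement pathway. In the nervous system microglia are the main source of C1q, and its chains are assembled into a single molecule from genes that lie side by side.

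The labels were checked on Isl1, the targeted gene, first. Its values were 242 and 201 TPM for the control pair and 321 and 223 TPM for the Isl1cKO pair, where TPM is a level scaled to transcript length and to a fixed sum per library. By this level Isl1 did not set the Isl1cKO-labelled libraries apart, and the tables have no value per exon. Every direction below rests on those labels. Isl1cKO replicate 2 stood apart in another way: the female-specific RNA Xist was at 0.501 TPM there and at 209 to 287 TPM in the other libraries. Aligned sequence, derived from coverage and FPKM, ranged from 12.6 to 14.3 gigabases per library. The tissue label was checked on genes of retinal progenitors. Over the 4 libraries Sfrp2, a secreted Wnt modulator, stood at 1577 to 2352 TPM, Fgf15, a growth factor, at 1473 to 2012 TPM, and Pax6 at 537 to 610 TPM, against a sum of 58.4 to 88.0 TPM for the 10 microglia genes.

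The C1q genes lie in a cluster of 18.7 kb on the minus strand of chromosome 4 (mm10, 136880126 to 136898844), with C1qb (136880126 to 136886200), C1qc (136889802 to 136892914) and C1qa (136895916 to 136898844) in that order. The upstream sequences of C1qb and C1qc are shown because the chains are encoded together and were higher together, and that of P2ry12 (chromosome 3, 59216271 to 59262985, minus strand) for comparison with a microglia gene elsewhere in the genome. They come from RefSeq promoters of the build GRCm38.p6, for which 6 of the 10 genes had an entry (C1qb, C1qc, Cx3cr1, Aif1, Trem2 and P2ry12). Each is written 5′ to 3′ on the gene's own strand and holds only bases upstream of both the RefSeq start and the first GENCODE M21 transcript. Capitals mark GAGGAA and GGAAGT, on either strand. Both hexamers hold the GGAA core recognised by ETS factors, the family of PU.1, which Spi1 encodes, and they can overlap by sharing GGAA.
C1qb, chr4:136886201-136886450: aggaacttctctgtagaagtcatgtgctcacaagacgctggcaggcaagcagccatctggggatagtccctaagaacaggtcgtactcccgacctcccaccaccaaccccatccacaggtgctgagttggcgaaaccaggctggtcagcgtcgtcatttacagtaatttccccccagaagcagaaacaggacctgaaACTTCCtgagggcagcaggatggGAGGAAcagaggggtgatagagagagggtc
C1qc, chr4:136893066-136893164: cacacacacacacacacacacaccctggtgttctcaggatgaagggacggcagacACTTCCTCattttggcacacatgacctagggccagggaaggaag
P2ry12, chr3:59262986-59263235: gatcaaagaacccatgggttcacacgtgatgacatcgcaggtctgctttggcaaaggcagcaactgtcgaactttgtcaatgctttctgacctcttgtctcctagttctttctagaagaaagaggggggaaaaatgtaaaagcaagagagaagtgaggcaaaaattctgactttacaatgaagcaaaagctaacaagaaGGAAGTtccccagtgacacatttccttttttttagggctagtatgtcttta
In C1qb, GGAAGT was found at 53 to 48 bases and GAGGAA at 30 to 25 bases before the RefSeq start. In C1qc the 2 hexamers overlapped at 195 to 188 bases before it. In P2ry12, GGAAGT lay at 51 to 46 bases. Over the 250 bases before the RefSeq start, 5 of the 6 genes held at least 1 of the hexamers, against 36.7% of the 32851 promoters in the table. The exception was Cx3cr1. This count takes all 250 bases, also those inside a GENCODE transcript, where the only match of Aif1 lay, at 7 to 2 bases before the RefSeq start. GAGGAA was in 23.3% and GGAAGT in 19.7% of all promoters, counting those with both under each. These matches describe letters only.

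The C1q chains were the most abundant of the 10 transcripts, and all 3 stood higher in both libraries labelled Isl1cKO than in either control. C1qb encodes the B chain. Its level was 11.7 TPM in control replicate 1, 10.3 TPM in control replicate 2, 18.6 TPM in Isl1cKO replicate 1 and 19.8 TPM in Isl1cKO replicate 2. The distance between the groups was several times the distance within either of them. The group means of C1qb, 10.98 ± 1.01 TPM for control against 19.2 ± 0.855 TPM for Isl1cKO (SD, n = 2 each), had a ratio of 1.75. Taken on log2(TPM + 1), a scale that shrinks differences between low values, the fold change was 0.76 (SE 0.10, 95% confidence interval 0.49 to 1.02). By the linear model of limma, fitted to the 13984 genes that reached 1 TPM in 2 or more libraries, its p-value was 0.00102 before and 0.101 after Benjamini-Hochberg adjustment. C1qb therefore did not pass the threshold of 0.05. It ranked 142nd of the tested genes by p-value and 53rd by the size of the increase.

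C1qc encodes the C chain and stood at 7.91 and 9.03 TPM in the control pair, against 11.1 and 11.9 TPM in the Isl1cKO-labelled libraries. Both pairs of replicates were close together and the groups did not overlap. The means were 8.47 ± 0.796 and 11.5 ± 0.572 TPM (SD, n = 2 each), with a log2 fold change of 0.40 (SE 0.10, interval 0.13 to 0.66); its adjusted p-value in limma was 0.277.

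C1qa, the A chain, showed the smallest difference of the 3 C1q genes. It stood at 10.6 and 9.26 TPM in the control pair, against 11.2 and 13.55 TPM in the Isl1cKO-labelled libraries. Control replicate 1 and Isl1cKO replicate 1 lay closer to each other than the 2 Isl1cKO libraries did. Its log2 fold change was 0.29 (SE 0.13, interval -0.05 to 0.63), and limma gave an adjusted p-value of 0.480.

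**Figure D1:**
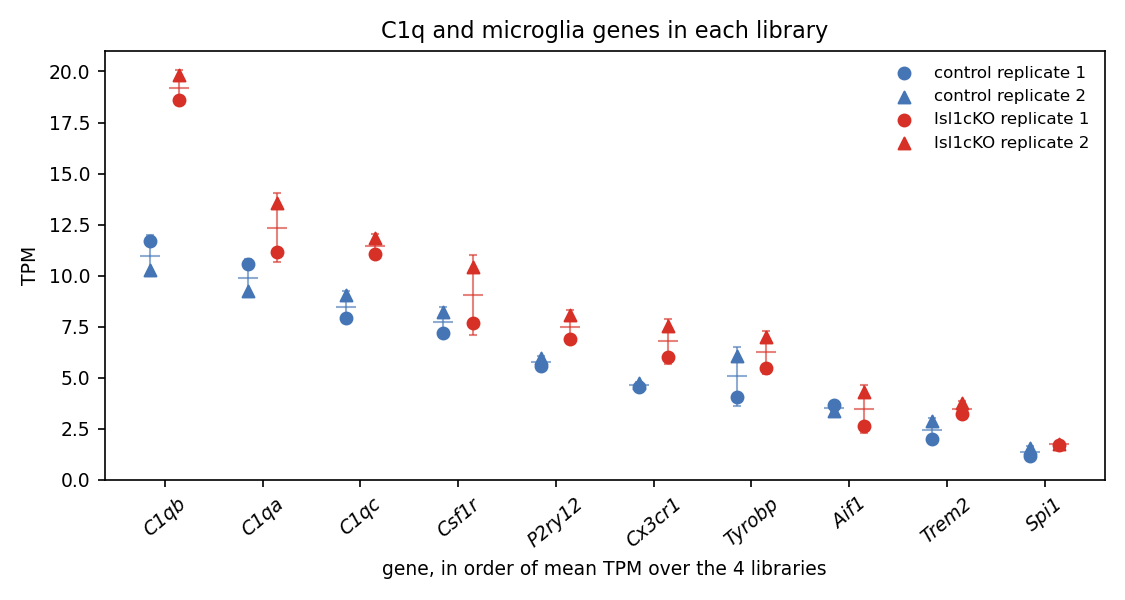
TPM of the 10 genes in each of the 4 libraries, ordered by mean level; circles are replicate 1, triangles replicate 2, and the dash with its bar is the mean and SD of the 2 libraries of a group. C1qb has the widest gap between groups, at 10.3 to 11.7 TPM in control and 18.6 to 19.8 TPM in Isl1cKO, while the groups of Csf1r, Tyrobp and Aif1 overlap.

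The receptor genes of microglia came next in level. Csf1r (chromosome 18, 61105572 to 61131139, plus strand) encodes the receptor for CSF1 and IL-34, on which microglia depend for survival. It was at 7.20 and 8.24 TPM in the control pair, against 7.66 and 10.4 TPM in Isl1cKO replicates 1 and 2. Isl1cKO replicate 1 lay between the controls, so the groups overlapped, and the log2 fold change of 0.19 (SE 0.16, interval -0.24 to 0.63) had an adjusted p-value of 0.716 in limma. Csf1r had a log2 fold change of -0.0072 when Isl1cKO replicate 2 was left out.

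Cx3cr1 (chromosome 9, 120048683 to 120068296, minus strand), the receptor for the neuronal chemokine fractalkine, stood at 4.54 and 4.77 TPM in the controls. It was at 6.01 and 7.55 TPM in the Isl1cKO-labelled libraries, both above both controls. The log2 fold change was 0.45 (SE 0.12, interval 0.13 to 0.78) and the adjusted p-value in limma was 0.300. In this fit Cx3cr1 had the largest log2 fold change of the 7 genes other than C1q, with Trem2 next at 0.40 (SE 0.15). The order changed when control replicate 2 was left out, with Trem2 at 0.58 and Cx3cr1 at 0.48. Without Isl1cKO replicate 2 they were nearly equal, at 0.313 and 0.312, as they were at a pseudocount of 0.1, at 0.520 and 0.525.

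P2ry12, a purinergic receptor by which microglial processes sense ATP and ADP, was at 5.60 and 5.99 TPM in the control pair, against 6.90 and 8.06 TPM in the Isl1cKO-labelled libraries. The groups were separate. Its log2 fold change was 0.32 (SE 0.10, interval 0.04 to 0.60), and limma gave an adjusted p-value of 0.363.

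Trem2 and Tyrobp act together, TREM2 as a lipid-sensing receptor and TYROBP (DAP12) as the adaptor that passes on its signal. Trem2 (chromosome 17, 48346401 to 48352276, plus strand) was at 2.00 and 2.87 TPM in the control pair, against 3.23 and 3.75 TPM in the Isl1cKO-labelled libraries. Its groups were separate, with a log2 fold change of 0.40 (SE 0.15) and, after adjustment in limma, a p-value of 0.430. Tyrobp (chromosome 7, 30413782 to 30417579, plus strand) was at 4.05 and 6.09 TPM in the control pair, against 5.50 and 6.99 TPM in the Isl1cKO-labelled libraries. Here the controls differed from each other by more than the group means did, and the adjusted p-value was 0.686 in limma for a log2 fold change of 0.27 (SE 0.21).

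Spi1 (chromosome 2, 91096678 to 91115759, plus strand) encodes PU.1, the transcription factor that directs myeloid development. It was the least abundant of the 10, at 1.14 and 1.55 TPM in the control pair and 1.73 and 1.74 TPM in the Isl1cKO-labelled libraries. The groups were separate by a margin smaller than the distance between the controls, with a log2 fold change of 0.22 (SE 0.11) and, after adjustment in limma, a p-value of 0.528.

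Aif1 (chromosome 17, 35170986 to 35176052, minus strand) encodes the actin-binding protein IBA1, a common stain for microglia. It was the only 1 of the 10 without a higher mean in Isl1cKO. Its values were 3.67 and 3.37 TPM in the control pair and 2.65 and 4.31 TPM in Isl1cKO replicates 1 and 2, which lay on either side of the controls. The log2 fold change was -0.04 (SE 0.20, interval -0.57 to 0.49), and it took the other sign under 2 other scalings, at 0.0079 with FPKM and 0.0040 with median-ratio scaling.

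In all, 0 of the 10 genes passed the adjusted threshold, as against 0.493% of all tested genes in either direction and 0.0286% in the direction of higher in Isl1cKO. At an unadjusted p-value under 0.05 in limma, 4 of 10 were higher (C1qb, C1qc, Cx3cr1 and P2ry12) and 0 lower, against 3.20% of tested genes higher. Both libraries labelled Isl1cKO lay above both controls in 7 of 10 genes, as they did in 14.9% of tested genes, and the log2 fold change was above 0 in 9 of 10, against 36.2%. The 10 are all genes of microglia read in the same 4 libraries, so these counts are not 10 separate observations. They were also chosen with earlier results of these data known. The median log2 fold change was 0.40 over the C1q chains, 0.27 over the 7 other genes and -0.05 over all tested genes. All 10 genes exceeded 1 TPM in all 4 libraries, so the filter on low values removed none of them. Each of the 10 had its highest value in Isl1cKO replicate 2, the library with Xist at 0.501 TPM. The part of that library's other differences in this was not tested. With Isl1cKO replicate 2 left out, the medians were 0.35 and 0.22, 8 of 10 genes had a log2 fold change above 0 and 0 passed. In RNA from whole tissue, more cells of a type and more RNA per cell cannot be told apart.

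**Figure D2:**
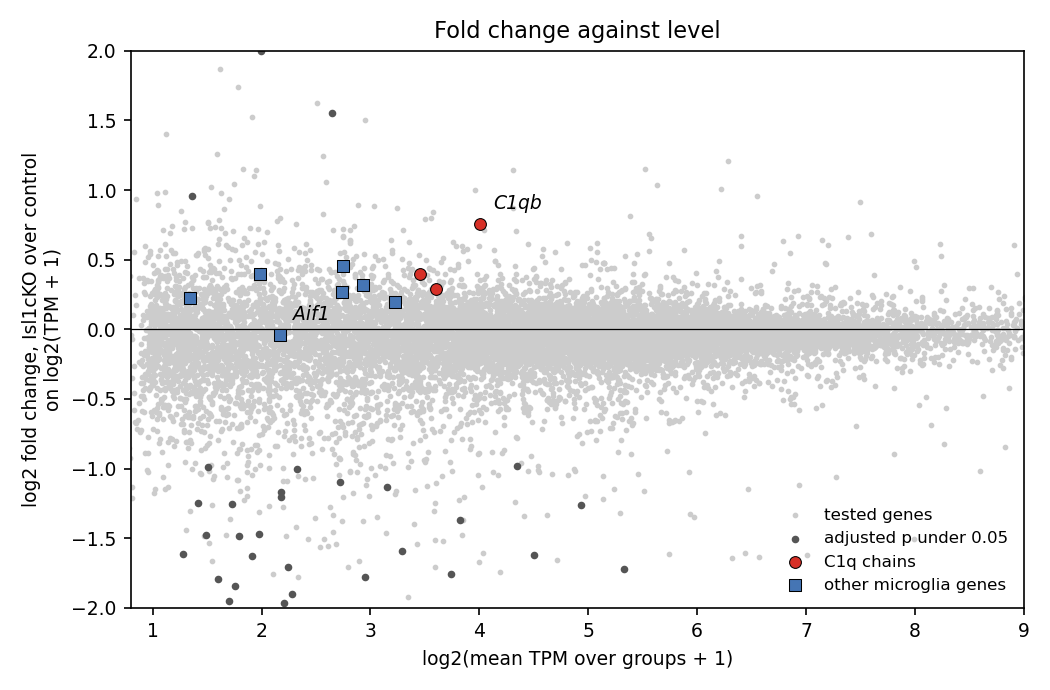
Log2 fold change of Isl1cKO over control against mean level for the 13984 tested genes, of which 313 lie outside the axes; red circles are the C1q chains and blue squares the 7 other microglia genes. C1qb, at 0.76, is the highest of the 10 and Aif1, at -0.04, the only 1 below 0.

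Read as sums, the C1q chains came to 30.2 and 28.6 TPM for the control pair and 40.8 and 45.2 TPM for the Isl1cKO pair, which gives means of 29.4 ± 1.13 and 43.0 ± 3.11 TPM (SD, n = 2 each) and a ratio of 1.47. The 7 other genes summed to 28.2 and 32.9 TPM in the control pair, against 33.7 and 42.8 TPM in the Isl1cKO-labelled libraries, with a ratio of means of 1.25. The latter sum was higher in Isl1cKO replicate 1 than in control replicate 2 by less than the distance between the controls. The C1q share of the 10-gene sum was 51.7% and 46.5% in the control pair and 54.8% and 51.4% in the Isl1cKO-labelled libraries. These shares overlapped, so a higher level of C1q relative to the other microglia genes did not exceed the spread between replicates. No test was made of these sums, and with 2 libraries against 2 an exact permutation test cannot give a p-value below 0.333.

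The make-up of the C1q transcripts was also read per library. C1qb made up 38.8% and 36.0% of the C1q sum in the control pair and 45.6% and 43.8% in the Isl1cKO-labelled libraries. C1qa made up 35.0% and 32.4% in the control pair and 27.3% and 29.9% in Isl1cKO. Neither pair overlapped with the other group. C1qc overlapped, at 26.2% and 31.6% in the control pair and 27.1% and 26.2% in Isl1cKO. These are shares of TPM, which is scaled to length, and were not tested.

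**Figure D3:**
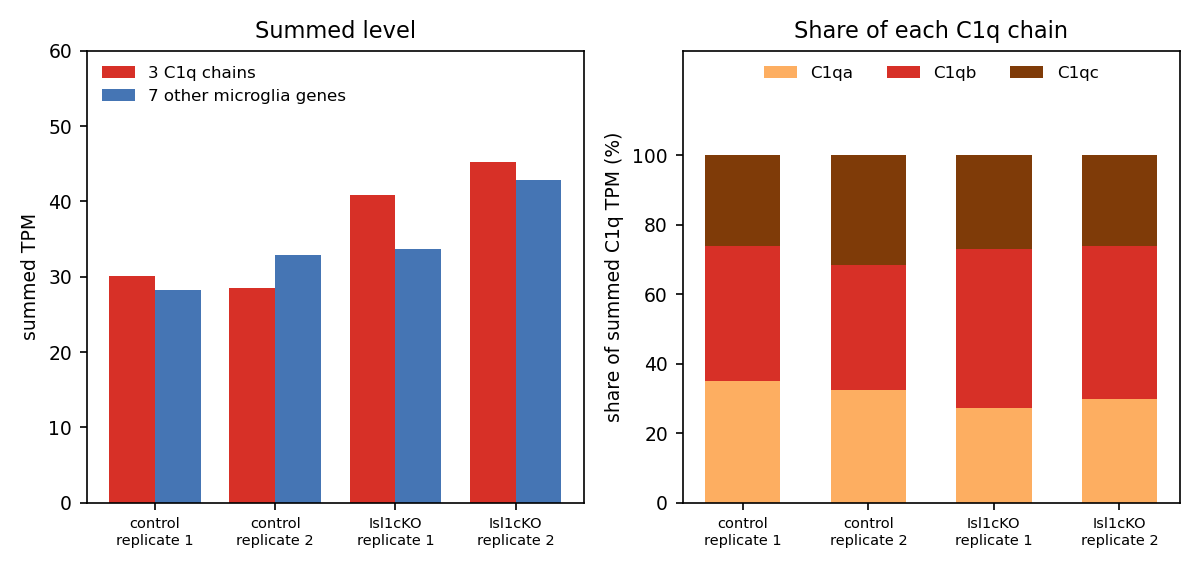
Left, summed TPM of the 3 C1q chains and of the 7 other microglia genes in each library; right, the percentage of the C1q sum contributed by each chain. The C1q sum is 28.6 to 30.2 TPM in control and 40.8 to 45.2 TPM in Isl1cKO, and the C1qb share is 36.0% to 38.8% and 43.8% to 45.6%.

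Over the 4 libraries the order of mean level was C1qb (15.1 ± 4.81 TPM, SD over 4 libraries), C1qa (11.1 ± 1.79), C1qc (9.97 ± 1.82), Csf1r (8.38 ± 1.43), P2ry12 (6.63 ± 1.09), Cx3cr1 (5.72 ± 1.38), Tyrobp (5.66 ± 1.24), Aif1 (3.50 ± 0.688), Trem2 (2.96 ± 0.736) and Spi1 (1.54 ± 0.279). Of the steps between neighbours, those from Csf1r to P2ry12, from Tyrobp to Aif1 and from Trem2 to Spi1 were larger than the SD of either gene. The other neighbours did not differ beyond that spread, which includes the difference between groups. Within a library, each gene lay above the next in 4 of 4 libraries, except Cx3cr1 above Tyrobp and Aif1 above Trem2, in 3 of 4. Mean coverage per base ranged from 6.004 for Spi1 in control replicate 1 to 99.4 for C1qb in Isl1cKO replicate 1.

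A wider list of 30 genes of microglia and other macrophages had members above and below their control level, none of them past the adjusted threshold. Of its 25 tested genes, 15 had a positive log2 fold change, against 36.2% of all tested genes, and 10 a negative one. The median was 0.05, against -0.05 over all tested genes, and 0 passed in limma. At an unadjusted p-value under 0.05, 2 were higher and 1 was lower, against 3.20% and 8.92% of all tested genes. The groups did not overlap in 4 genes that were higher and 3 that were lower, as in 14.9% and 30.0% of all tested genes. The most abundant members were lysosomal or surface genes that many cells of the retina also express. Ctsb, a lysosomal protease, averaged 59.5 TPM in control and 57.5 TPM in Isl1cKO, Ly6e 41.8 and 47.5 TPM, and Hexa, a lysosomal hexosaminidase subunit, 31.8 and 40.9 TPM, with adjusted p-values of 0.914, 0.642 and 0.398. The other separate genes, named after their values had been seen, were Fcgr3, Mpeg1, Coro1a, Cd68 and Sall1. Fcgr3, an antibody receptor, measured 2.29 and 2.99 TPM in the control pair, against 3.75 and 4.37 TPM in the Isl1cKO-labelled libraries (adjusted p-value 0.306 in limma). Mpeg1, a pore-forming protein of macrophages, measured 6.51 and 7.32 TPM in the control pair, against 7.53 and 9.15 TPM in the Isl1cKO-labelled libraries. The actin regulator Coro1a was lower, at 23.1 and 23.6 TPM in the control pair, against 18.1 and 19.4 TPM (adjusted p-value 0.304). Cd68, a lysosomal protein of macrophages, went from 10.2 and 11.3 TPM to 9.51 and 9.74 TPM, and Sall1, a transcription factor, from 5.32 and 5.36 TPM to 4.84 TPM in both. Among the 18 tested genes whose groups overlapped were the protease gene Ctss, at 10.1 to 17.1 TPM, and several low microglia markers, also named after their values had been seen. Tmem119 lay between 1.19 and 1.95 TPM, Siglech between 0.978 and 1.54 TPM, Gpr34 between 1.92 and 2.17 TPM and Adgre1 between 1.63 and 2.51 TPM.

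Markers of macrophages at the borders of the nervous system and of the yolk sac were near the limit of the tables. Of 12 such genes only Folr2, Stab1 and Lyve1 were tested, 3 were listed at 0 in every library, and the summed level was 9.42 and 8.22 TPM in the control pair and 5.54 and 4.70 TPM in the Isl1cKO-labelled libraries. Folr2, a folate receptor, averaged 3.11 TPM in control and 2.96 TPM in Isl1cKO. Stab1 averaged 1.79 and 1.04 TPM and Lyve1 1.10 and 0.668 TPM, both scavenger or hyaluronan receptors, with adjusted p-values of 0.480 and 0.514. The summed level was lower in both Isl1cKO-labelled libraries than in either control. Among the genes too low to be tested, 3 are named here after their values had been seen. Pf4 averaged 1.24 TPM in control and 0.0403 TPM in Isl1cKO, Mrc1 0.750 and 0.177 TPM, and F13a1 0.752 and 0.155 TPM. Ms4a7 and Timd4, at lower levels, overlapped between groups.

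Summed levels of red blood cell, endothelial and mesenchymal genes, from tissues that a retinal dissection can carry, were lower in both Isl1cKO-labelled libraries than in either control, and their part in the microglia values was not tested. The 10 red blood cell genes summed to 2904 and 4170 TPM in the control pair, against 1419 and 205 TPM in Isl1cKO replicates 1 and 2. Hba-a1 averaged 1726 and 403 TPM, Hbb-y 946 and 253 TPM, and Hbb-bs 422 and 65.3 TPM, and Hbb-bs was listed at 0 in Isl1cKO replicate 2. None of the 9 tested passed the adjusted threshold, 5 being lower at an unadjusted p-value under 0.05, against 8.92% of all tested genes. The 9 endothelial genes summed to 87.6 and 65.2 TPM in control and 63.3 and 59.6 TPM in Isl1cKO, most of it Kdr, which retinal progenitors also express. Cldn5, a tight junction protein, averaged 6.28 TPM in control and 4.09 TPM in Isl1cKO, and the adhesion molecule Pecam1 1.52 and 0.488 TPM. Cdh5, the cadherin of vessels, and the receptor Tie1, named after their values had been seen, were too low to be tested. Cdh5 measured 2.55 and 0.357 TPM in the control pair, against 0.211 TPM in Isl1cKO replicate 1, and Tie1 1.80 and 0.336 TPM, against 0.0959 TPM. Both were listed at 0 in Isl1cKO replicate 2. Control replicate 1 was the highest library for all 9 endothelial genes. The 10 genes of periocular mesenchyme summed to 28.6 and 21.2 TPM in control and 20.4 and 15.5 TPM in Isl1cKO, most of it the collagen gene Col1a2, which averaged 16.5 and 11.8 TPM (adjusted p-value 0.285 in limma). Col3a1 averaged 2.02 and 1.03 TPM and Col1a1 1.42 and 1.28 TPM, and both overlapped. Of 15 lymphocyte, granulocyte and mast cell genes 0 were tested and 6 were listed at 0 throughout. Their sum was 8.46 TPM in control replicate 1, where S100a9 and S100a8 stood at 4.04 and 2.18 TPM, and 1.04 to 1.96 TPM in the others. Itga2b, a platelet integrin gene, was at 0.562 to 0.679 TPM.

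Complement genes other than C1q were centred near the median of all tested genes. Of 30 listed, 13 were tested, 4 with a positive log2 fold change (36.2% over all tested genes) and 9 with a negative one, the median was -0.07, and 0 passed the adjusted threshold in limma, with 1 higher and 0 lower at an unadjusted p-value under 0.05, against 3.20% and 8.92% of all tested genes. The most abundant were Calr (calreticulin, an endoplasmic reticulum chaperone that can bind C1q) averaging 741 and 685 TPM for control and Isl1cKO, the mitochondrial protein gene C1qbp at 197 and 201 TPM, and Cr1l, which encodes the rodent complement inhibitor Crry, at 37.6 and 35.6 TPM. Their adjusted p-values were 0.664, 0.953 and 0.874. Serping1, the inhibitor of C1r and C1s, was the gene at an unadjusted p-value under 0.05. It stood at 20.3 and 20.6 TPM in control and 28.1 and 24.6 TPM in Isl1cKO, with an adjusted p-value of 0.306. The proteases and the next components of the classical pathway, named after their values had been seen, were barely present. C1ra was listed at 0 in 3 libraries and at 0.0789 TPM in the other, C1s1 was at most 0.136 TPM, C4b at most 0.108 TPM and C2 between 0.332 and 0.577 TPM. C3 was below 0.6 TPM in 3 libraries and at 2.28 TPM in control replicate 2. C3ar1, a receptor for a fragment of C3, was at 0.221 and 0.474 TPM in control and 0.718 and 0.997 TPM in Isl1cKO, under the level needed for a test.

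**Figure D4:**
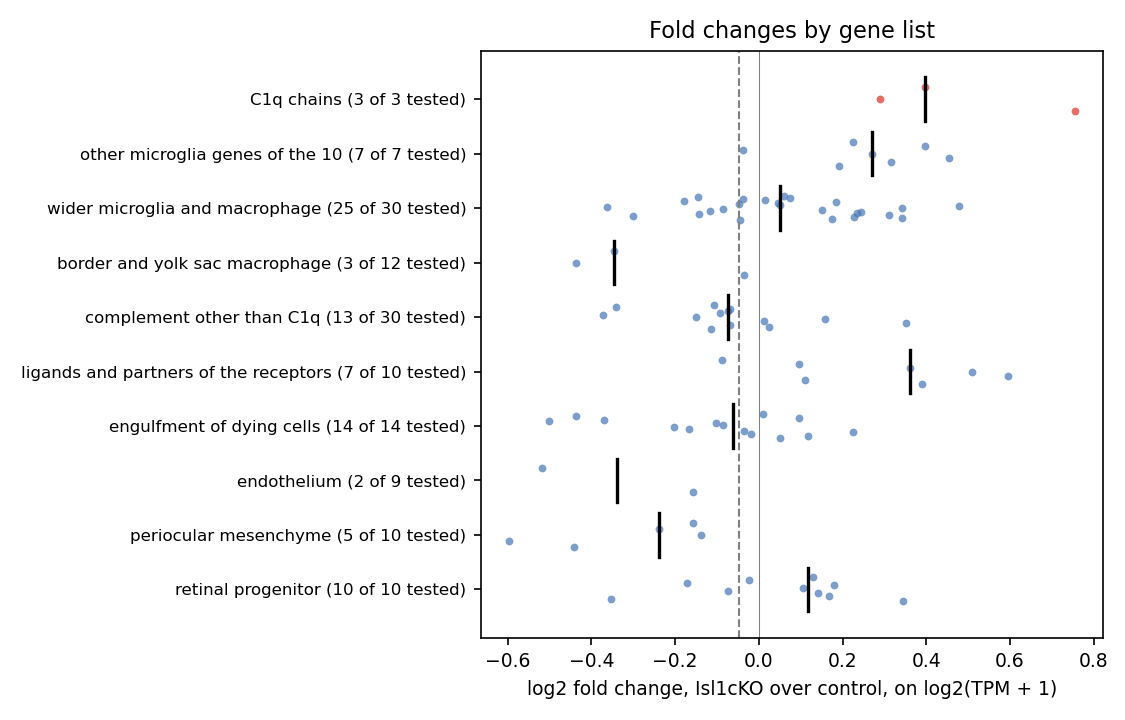
Log2 fold changes of the tested genes of each list, except the red blood cell list (9 tested, median -2.41), which is not shown. Points are genes, black bars list medians and the dashed line the median of all tested genes, -0.05. The C1q chains (median 0.40) and the 7 other microglia genes (0.27) lie to the right, the wider microglia list (0.05) and the other complement genes (-0.07) near the dashed line, and 2 of the 3 tested border macrophage genes to its left.

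Ligands and partners of the microglial receptors formed the last list. Of its 10 genes 7 were tested, 6 of them with a positive log2 fold change, against 36.2% of all tested genes, and a median of 0.36. None of the 7 passed the adjusted threshold in limma, as against 0.493% of all tested genes. At an unadjusted p-value under 0.05, 1 was higher, against 3.20% of all tested genes. The groups did not overlap in 4 genes that were higher and 0 that were lower, as in 14.9% and 30.0% of all tested genes. Cx3cl1 encodes fractalkine, the ligand of Cx3cr1. It stood at 1.45 and 1.70 TPM in the control pair, against 2.95 and 2.81 TPM in the Isl1cKO-labelled libraries, 2 narrow and separate pairs. Its log2 fold change was 0.59 (SE 0.09), with a p-value of 0.00186 before and 0.129 after adjustment in limma. Csf1, a ligand of Csf1r, overlapped at 9.82 and 13.9 TPM in control and 12.7 TPM in both libraries labelled Isl1cKO, while Il34, the other ligand, was listed at 0 in all but Isl1cKO replicate 1. Apoe, a lipid carrier bound by TREM2, was at 165 and 174 TPM in the control pair, against 193 and 256 TPM in Isl1cKO, its log2 fold change being 0.39 (adjusted p-value 0.445).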

How the data were processed

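The 4 libraries of retinal RNA at E13.5, 2 labelled control and 2 labelled Isl1cKO, were compared. The submitters' processing notes name Trimmomatic, FastQC, HISAT2, SAMtools, StringTie and DESeq2, without versions or roles, and the build mm10. Annotation and strand settings of the quantification are not given in the sources used here. Per the file headers, the authors deposited for each gene its coverage per base, FPKM and TPM, 1 table per library. Deposited TPM summed to 1000000 in each library and was used, with repeated rows of a gene summed. Deposited FPKM served as an alternative, and the deposited coverage signal only to describe depth. Depth in reads is unknown.

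The values log2(TPM + 1) of 13984 genes were fitted with limma 3.58.1 in R 4.3.3, on genotype alone, under a constant variance prior, and p-values were adjusted by Benjamini-Hochberg over all of them. Replicate numbers were not used as pairs. The fit was tested on simulated data. The 10 genes, the lists and the tests were chosen with earlier results of these data known. Besides the 10, the rule named Isl1, any list gene past the threshold (there were 0), the 3 most abundant of each list and the 5 closest in profile to C1q. Genes beside the C1q cluster were taken by position. All others, such as Xist, Serping1 and Il34, were chosen after their values were seen. Alternatives were pseudocounts of 0.1 and 0.5, a filter of 5 TPM and none, FPKM, median-ratio scaling, a mean-variance trend, a replicate block, leaving out genes on several rows, and leaving out each library.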

Additional observations from a re-analysis of the deposited data

How the results depend on the processing

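Of the genes of the 10 that were tested, 0 passed the adjusted threshold in limma under each of the 9 refits and the 4 left-out libraries. The filter of 5 TPM left out Aif1, Trem2 and Spi1. The count of genes called among all tested, 69 (4 higher), was 44 at a pseudocount of 0.1, 15 with no filter, 109 with FPKM, 110 with a mean-variance trend and 265 (25 higher) with the replicate block. It ranged from 10 without control replicate 1 to 37 without Isl1cKO replicate 1, where the lone library of a group is assumed to vary like the others. Deviations of the same-numbered libraries correlated at 0.126 across genes, and with 2 pairs the libraries share only a number. The smallest adjusted p-value among the 10 was that of C1qb, from 0.0540 with FPKM to 0.193 with no filter, and 0.0588 with the replicate block. It was 0.432 without control replicate 1, 0.370 without control replicate 2, 0.253 without Isl1cKO replicate 2 and 0.0863 without Isl1cKO replicate 1. Filters, the mean-variance trend, the replicate block and leaving out genes on several rows use the same log2 values of a gene. Those settings cannot move its fold change. Under the pseudocounts, FPKM and median-ratio scaling, which can, C1qb kept its direction, with log2 fold changes from 0.73 to 0.80. Over the left-out libraries C1qb ranged from 0.67 to 0.84. Aif1 changed sign, at 0.0079 with FPKM, 0.0040 with median-ratio scaling, and -0.31 to 0.23 over the left-out libraries. Csf1r ranged from -0.0072 without Isl1cKO replicate 2 to 0.39 without Isl1cKO replicate 1. The other 7 genes stayed above 0 wherever they were tested. The median of the C1q chains ranged from 0.35 to 0.48 over the left-out libraries. That of the 7 other genes ranged from 0.11 without control replicate 1 to 0.42 without Isl1cKO replicate 1. At a pseudocount of 0.1, which shrinks low values less, the medians of C1q and of the 7 others were 0.43 and 0.36. They lay nearer to each other than the 0.40 and 0.27 of the main fit. The difference in the C1q share of the 10-gene sum was 4.0 percentage points and ranged from 1.40 without control replicate 2 to 6.59 without control replicate 1. The cause of these changes was not tested. The number of reads is not known, and genes listed at 0 have no stated detection limit.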

Other observations

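Genes for the engulfment of dying cells, which microglia share with neural cells, were read from a list of 14, all tested. Of these 5 had a positive log2 fold change (36.2% over all tested genes) and 9 a negative one, with a median of -0.06, and 0 passed the adjusted threshold in limma. At an unadjusted p-value under 0.05, 1 was higher and 2 were lower, against 3.20% and 8.92% of all tested genes. The most abundant were Mfge8, a bridge between dying cells and integrins, at 56.8 and 56.4 TPM in control and 52.7 and 65.2 TPM in Isl1cKO, the adaptor Gulp1 at 41.9 and 44.8 against 46.8 and 47.5 TPM, and the receptor Tyro3 at 26.7 and 27.0 against 25.4 and 27.5 TPM. Their adjusted p-values were 0.910, 0.653 and 0.948.

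Of the genes beside the C1q cluster on chromosome 4, chosen by position, Ephb2, Epha8 and Zbtb40 were tested. Their log2 fold changes were below 0, as were those of most tested genes (36.2% were above 0). Lactbl1, averaging 0.348 TPM in control and 0.413 TPM in Isl1cKO, was too low to be tested, and Tex46 and Gm13003 were listed at 0 in every library. Ephb2, 44114 bases from the cluster on its C1qb side, was at 81.0 and 71.6 TPM in control and at 61.5 and 67.6 TPM in Isl1cKO. Epha8, 30575 bases away on the C1qa side, was at 12.3 and 9.74 TPM in control and 8.16 and 5.004 TPM in Isl1cKO. Both are ephrin receptor genes, and their log2 fold changes were -0.24 and -0.69, with adjusted p-values of 0.480 and 0.384 in limma. Zbtb40, the next gene on that side, was at -0.13.

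The tested genes with the profile closest to the mean of the C1q chains were Tnfaip8l2, Ap1s3, Acacb, Ybx2 and Txnip. Their root mean square distances over the 4 libraries on the log2(TPM + 1) scale were 0.0238 to 0.0375. Among the microglia genes, Cx3cr1 (0.0651) and P2ry12 (0.0978) were closest to the C1q mean and Aif1 (0.295) farthest. By this distance Cx3cr1 stood 27th, P2ry12 96th and Aif1 7611th among the tested genes, and C1qb itself 483rd. Tnfaip8l2, a gene of immune cells, stood at 0.829 and 0.738 TPM in control and at 1.46 and 1.67 TPM in Isl1cKO. It reached the filter of 1 TPM only in the libraries labelled Isl1cKO. Such genes were picked for their likeness to C1q, so their difference between groups is not a separate result. With 4 libraries such likeness is a description only.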
